A study of Mus musculus with 6 samples.

Results

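The 10 genes described here encode the MHC class II presentation machinery of the mouse: H2-Aa, H2-Ab1, H2-Eb1, Cd74, H2-DMa, H2-DMb1, H2-DMb2, H2-Oa, H2-Ob and Ciita. They were found by gene name in the raw count table, where each name occurred once, and make up 10 of the 49315 genes listed. All 10 had enough reads for every comparison, with the fewest reads, 73, for H2-Oa in Lamp1-enriched cells of BLM-treated mice.

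RNA was sequenced from lung single-cell suspensions of C57BL/6 mice, male C57BL/6J in the study's methods, 21 days after oropharyngeal instillation. Sham-treated mice received sterile saline and BLM-treated mice received bleomycin sulfate, an agent that injures the lung and leaves fibrosis. From each treatment there were unsorted cells, Lamp1-depleted cells and Lamp1-enriched cells, sorted by Lamp1 on the cell surface, each condition as a single library, 6 in all. The age of the mice is not given in the labels, and 2 to 3 lungs of a group were pooled per tube, so single animals are not resolved. The totals of counted reads were 40742095 in sham unsorted, 39609874 in sham Lamp1-depleted, 45090413 in sham Lamp1-enriched, 39728284 in BLM unsorted, 30236120 in BLM Lamp1-depleted and 52918696 in BLM Lamp1-enriched cells. There is no replicate of any condition, so differences between single libraries carry no test, and every 95% interval given below covers counting error only.

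MHC class II molecules display peptides from endosomes to CD4+ T cells, and in the lung they are known from B cells, dendritic cells, macrophages and also alveolar type 2 cells. An alpha and a beta chain assemble on the invariant chain Cd74, which is trimmed by cathepsins to a short peptide in the groove. H2-DM exchanges that peptide for others, H2-DO (H2-Oa with H2-Ob) holds H2-DM back, mainly in B cells, and Ciita is the transactivator that turns the whole group on.

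The fractions were first checked against their labels. Wherever 3 values of a treatment are listed, the order is unsorted, Lamp1-depleted, then Lamp1-enriched. Lamp1 itself stood at 319, 146 and 491 CPM in the sham libraries and at 501, 111 and 378 in the BLM libraries. CPM stands here for reads relative to the library total, scaled by edgeR's trimmed mean of M-values (TMM) over the 6 libraries. Lamp1 RNA was thus higher in Lamp1-enriched than in Lamp1-depleted cells of both treatments, while BLM unsorted cells lay above BLM Lamp1-enriched cells. Ptprc, which encodes the pan-leukocyte antigen CD45, was at 2593 CPM in sham Lamp1-depleted against 202 in sham Lamp1-enriched cells, and at 1267 against 173 after BLM. The strain label could also be checked within the class II locus, because C57BL/6 mice carry the b haplotype, in which the I-E alpha gene is disrupted and no I-E protein is made. That pseudogene, H2-Ea-ps, had at most 13 reads in any library and 0 in BLM Lamp1-depleted cells (upper end of the exact 95% interval 0.175 CPM). The library of BLM Lamp1-depleted cells stood apart from the rest, with 38.4% of its reads on the noncoding gene Gm26917 and at most 7.1% in the others.

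The classical chains were abundant and highest in sham Lamp1-depleted cells. H2-Aa, the I-A alpha chain, was at 312, 2010 and 329 CPM in the sham libraries, and at 665, 617 and 436 in the BLM libraries. H2-Ab1, the I-A beta chain, was at 199, 929 and 171 in the sham libraries and at 548, 523 and 280 in the BLM libraries. H2-Eb1, the I-E beta chain, was at 125, 652 and 93.8 in the sham libraries and at 391, 496 and 168 in the BLM libraries. In sham-treated mice 1 fraction held far more of all 3 chains than the other cells, whereas after BLM the libraries lay closer together. H2-Eb1 was transcribed at these levels although its alpha partner is missing in this strain.

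Cd74, the invariant chain, was at 432, 3462 and 386 CPM in the sham libraries. In the BLM libraries it was at 1818, 1396 and 832. It was the member with the most reads in each of the 6 libraries. Together, H2-Aa, H2-Ab1, H2-Eb1 and Cd74 took between 80.7% and 91.8% of the reads of the 10 genes. The 10 genes took 0.936% (exact 95% interval 0.933 to 0.939) of all counted reads in sham Lamp1-depleted cells, and 0.114% (0.113 to 0.115) in sham Lamp1-enriched cells.

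**Figure D1:**
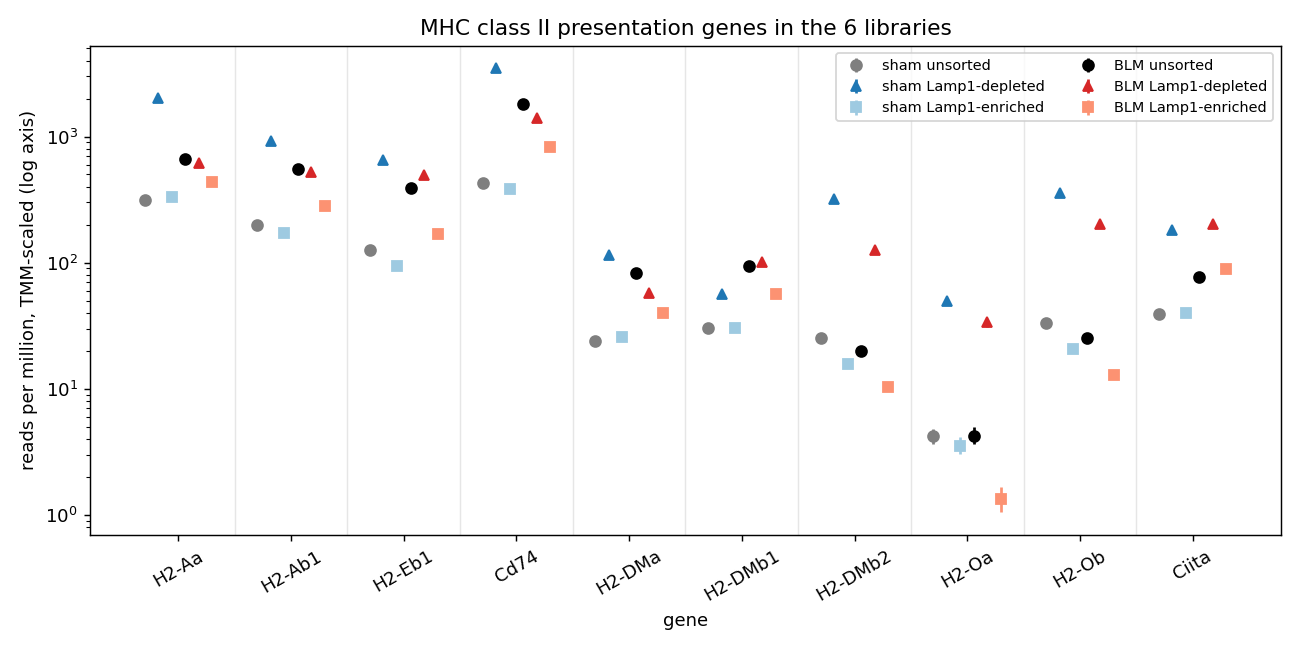
TMM-scaled CPM on a log axis, for each of the 10 genes in each of the 6 libraries (1 point a library, bars the exact 95% Poisson interval of the count, mostly smaller than the point). H2-Aa, H2-Ab1, H2-Eb1, Cd74 and H2-DMa were highest in sham Lamp1-depleted cells and spread over 4.85-fold to 8.98-fold, while H2-DMb2, H2-Oa and H2-Ob spread over 27.7-fold to 37.3-fold.

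The subunits of the peptide editor H2-DM did not share a pattern. H2-DMa, its alpha chain, was at 24, 116 and 26 CPM in the sham libraries and at 83.1, 57.1 and 39.6 after BLM, an order close to that of the classical chains. The beta chain H2-DMb1 was at 30.3, 56.2 and 30.4 in the sham libraries and at 94.3, 101 and 56.2 in the BLM libraries. Its copy H2-DMb2, a second beta chain gene, was at 25.5, 321 and 15.8 in the sham libraries and at 20.1, 127 and 10.4 in the BLM libraries. H2-DMb1 was therefore higher in each BLM library than in its sham counterpart, and H2-DMb2 was lower in each.

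H2-Oa and H2-Ob, the chains of the H2-DM inhibitor H2-DO, behaved like H2-DMb2. H2-Oa was at 4.22, 50 and 3.56 CPM in the sham libraries and at 4.26, 33.6 and 1.34 after BLM. H2-Ob was at 33.3, 356 and 20.8 in the sham libraries and at 25.2, 202 and 12.8 in the BLM libraries. For both chains the Lamp1-depleted libraries were the highest within each treatment, and BLM Lamp1-enriched cells were the lowest of all 6.

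Ciita, the transactivator, was at 39, 183 and 39.6 CPM in the sham libraries, and at 76.9, 202 and 89.4 after BLM. The Lamp1-depleted libraries were again the highest of each treatment. The sham unsorted and sham Lamp1-enriched values of Ciita did not differ beyond their counting intervals with TMM, and the same held for H2-DMa, H2-DMb1 and H2-Oa. With total counts as the scale, the log2 ratios of Lamp1-enriched to unsorted cells were -0.20 for Ciita, against 0.02, and -0.22 for H2-DMb1, against 0.00, and the sign also turned for H2-DMa (0.12 to -0.11) and H2-Aa (0.08 to -0.15). In these bulk samples, fewer cells of a type and less RNA per cell cannot be told apart.

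Since H2-DMb1 and H2-DMb2 are close copies, the reads that can tell them apart matter for their counts. Their transcript sequences (GENCODE M21) aligned over 1196 bases with 92.8% identity. Of the 150-base windows of the H2-DMb1 transcript, the length of 1 sequenced read, 5.74% occurred unaltered in H2-DMb2, and 5.4% the other way round. Reads were trimmed, and for shorter windows the shares were larger, 13.7% and 12.9% at 100 bases and 27.2% and 25.2% at 50 bases. How reads that map to both were counted is not stated, so counts of either gene are uncertain by the reads from such windows. No other pair of members shared a window of 50 bases.

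The start regions of the same copies are shown next, with those of other members, because genes with nearly the same proximal promoter letters had the unlike levels given above. The stretches are from RefSeq's promoter table (build GRCm38.p6), which held entries for 7 of the 10 members and none for H2-Ab1, Cd74 and Ciita. Each is 52 bases, written 5′ to 3′ on the gene's strand. Capitals mark AACNNATG, letters within the X box that RFX proteins bind, and GATTGG, which reads CCAATC on the other strand and is part of the Y box that NF-Y binds. H2-Eb1 is at chr17:34305765-34305816, H2-DMb1 at chr17:34153087-34153138, H2-DMb2 at chr17:34145116-34145167 and H2-Ob at chr17:34238805-34238856, all on the plus strand. H2-Oa is at chr17:34092293-34092344 on the plus strand and H2-Aa at chr17:34287863-34287914 on the minus strand.
H2-Eb1: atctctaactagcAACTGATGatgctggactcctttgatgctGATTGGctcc
H2-DMb1: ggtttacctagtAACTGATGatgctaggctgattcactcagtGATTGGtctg
H2-DMb2: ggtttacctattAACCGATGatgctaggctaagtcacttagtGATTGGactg
H2-Ob: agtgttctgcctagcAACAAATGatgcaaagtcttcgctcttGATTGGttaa
H2-Oa: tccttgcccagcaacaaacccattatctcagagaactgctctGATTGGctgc
H2-Aa: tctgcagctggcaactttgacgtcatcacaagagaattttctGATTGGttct

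H2-Eb1, H2-DMb1, H2-DMb2 and H2-Ob held both sets of letters, 19 to 22 bases apart, and H2-Oa and H2-Aa held GATTGG alone. Over all 32851 promoter windows in the table, searched on both strands, AACNNATG occurred in 8.86% and GATTGG in 16.1%. Both on 1 strand in that order, 10 to 35 bases apart, occurred in 29 windows (0.0883%), 4 of them those of the members just named. The letters were chosen after these sequences had been read, and a match is a description of the window only. The 2 entries for H2-DMa held no such pair. The starts used by RefSeq for H2-DMa, H2-DMb1 and H2-DMb2 lie inside the bounds of the annotated genes. For H2-DMa and H2-DMb2 the windows do not reach the annotated start of the gene, so that start was not searched. H2-DMb1 and H2-DMb2 thus carried the same spacing of 22 bases, while the reads of H2-DMb2 per read of H2-DMb1 spanned 30.9-fold over the libraries.

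Per length, as CPM per kilobase of annotated exon, the order of the genes in sham Lamp1-depleted cells ran from Cd74 at 2062 over H2-Aa at 529, H2-Ab1 at 362 and H2-Eb1 at 335 to H2-DMb2 at 184. Below these came H2-Ob at 66.1, H2-Oa at 35.5, H2-DMa at 33.8, H2-DMb1 at 33.5 and Ciita at 19.2. In BLM unsorted cells Cd74 again led at 1083, and H2-DMb1 at 56.1 stood above H2-DMb2 at 11.5, H2-Ob at 4.69 and H2-Oa at 3.03. So H2-DMb2 was the more abundant beta chain transcript per length in sham Lamp1-depleted cells and H2-DMb1 in BLM unsorted cells. Exons of minor transcripts lengthen some of these genes. With exons of CCDS transcripts alone, a choice made after seeing the data, H2-Aa in sham Lamp1-depleted cells was at 1782, H2-Ab1 at 767, H2-Ob at 133 and H2-DMa at 70.2. H2-DMa then stood above H2-Oa, at 45.9, and the order of the other genes was the same.

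In sham-treated mice, every class II gene was lower in Lamp1-enriched than in Lamp1-depleted cells. The difference was at least 2-fold for 9 of 10 genes, while 25.2% of 21867 genes were at least 2-fold lower and 27.5% at least 2-fold higher. Genes entered a comparison when the higher of its libraries had 10 reads or more. The median log2 ratio of the 10 genes was -2.70, against -0.01 over all genes. Cd74 was 8.98-fold lower (log2 ratio -3.17, 95% interval -3.19 to -3.14) and H2-Aa 6.12-fold lower (-2.61, -2.64 to -2.59). H2-DMb2 was 20.4-fold lower (-4.35, -4.46 to -4.24) and H2-Ob 17.1-fold lower (-4.10, -4.19 to -4.00), the widest gaps among the 10. H2-DMb1, at a log2 ratio of -0.89 (-0.98 to -0.79), was the exception to the 2-fold rule, though not with scaling by total counts, which gave -1.06.

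After BLM the same contrast was narrower for most members. All 10 genes lay lower in Lamp1-enriched than in Lamp1-depleted cells with TMM scaling, whereas H2-Aa and H2-DMa had log2 ratios of 0.06 and 0.03 when scaled by total counts. The difference reached 2-fold for 5 of 10, H2-Eb1, H2-DMb2, H2-Oa, H2-Ob and Ciita, beside 22.6% of 21838 genes at least 2-fold lower and 34.4% at least 2-fold higher. Ciita did not reach 2-fold with total counts (-0.61, against -1.17 with TMM), while H2-Ab1 did with DESeq2 size factors (-1.05) and without Gm26917 (-1.03). The median over the 10 was -1.04, against 0.29 over all genes. Cd74 was 1.68-fold lower (log2 ratio -0.75, -0.77 to -0.73) and H2-Aa 1.41-fold lower (-0.50, -0.53 to -0.47). H2-Oa was 24.9-fold lower (-4.64, -5.02 to -4.30) and H2-Ob 15.7-fold lower (-3.98, -4.09 to -3.86), against 14-fold (-3.81, -4.05 to -3.58) and 17.1-fold in sham-treated mice. The BLM log2 ratio minus the sham log2 ratio was 2.42 for Cd74, 2.11 for H2-Aa, 0.12 for H2-Ob and -0.83 for H2-Oa, whose gap was wider after BLM. With 1 library per condition this difference between treatments was not tested. Scaled by total counts, higher genes made up 74.7% of all genes 2-fold apart in BLM cells, against 60.3% with TMM.

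Lamp1-enriched and Lamp1-depleted cells were also compared over both treatments in edgeR's quasi-likelihood test, fitted to the 4 sorted libraries and all 20593 genes that passed its filter, with treatment as a block. All 10 members were lower in Lamp1-enriched cells at a Benjamini-Hochberg adjusted p under 0.05, where 19.2% of all genes were called lower and 21.5% higher. The fit had 1 residual degree of freedom, so its spread was pooled over all genes. For H2-Oa the log2 difference was -4.31 (adjusted p = 7.5e-24), for H2-Ob -4.13 (2.2e-22) and for H2-DMb2 -4.08 (1.5e-22), each lower in 2 of 2 treatments. H2-Eb1 followed at -2.28 (adjusted p = 2.4e-07), Cd74 at -2.05 (2.7e-04) and Ciita at -1.79 (6.9e-06). The smallest difference was that of H2-DMb1, -0.96 (adjusted p = 0.014 in edgeR's test). When total counts alone set the scale, the same edgeR test called 3 of the 10 members, H2-DMb2, H2-Oa and H2-Ob. Over all genes, 1564 were then called lower and 2872 higher, against 3964 and 4422 with TMM. Higher genes made up 64.7% of all calls against 52.7%. Over the 5 alternatives to this test, total counts among them, Cd74 and H2-DMb1 were called in 3 each. Calls of genes outside the 10 members, given below, are for the main setting only.

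Unsorted cells served as the reference for both fractions. In sham-treated mice, Lamp1-depleted cells exceeded unsorted cells at least 2-fold for 9 of 10 class II genes, beside 18.3% of 22925 genes at least 2-fold higher and 30.4% at least 2-fold lower. The fold was 12.6 for H2-DMb2, 11.8 for H2-Oa, 10.7 for H2-Ob and 8.01 for Cd74, and 1.86 for H2-DMb1. The median log2 ratio was 2.53, against -0.03 over all genes. Sham Lamp1-enriched cells, in contrast, were near unsorted cells. None of the 10 was 2-fold apart there, with 2.55% of 22323 genes at least 2-fold higher and 15.8% at least 2-fold lower. The largest gaps were log2 ratios of -0.69 (-0.83 to -0.56) for H2-DMb2 and -0.68 (-0.80 to -0.57) for H2-Ob.

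In BLM-treated mice the group split. Lamp1-depleted cells exceeded unsorted cells at least 2-fold for 4 of 10 genes, H2-DMb2, H2-Oa, H2-Ob and Ciita, beside 16.9% of 21431 genes at least 2-fold higher and 33.6% at least 2-fold lower. H2-Ob was 8.01-fold higher, H2-Oa 7.86-fold, H2-DMb2 6.33-fold and Ciita 2.62-fold, the last reaching a log2 ratio of 0.88 with total counts against 1.39 with TMM. Cd74 and H2-DMa were lower in Lamp1-depleted than in unsorted cells, at log2 ratios of -0.38 (-0.40 to -0.36) and -0.54 (-0.64 to -0.45). With total counts H2-DMa was at -1.05, so that 3 of 10 genes were at least 2-fold higher and 1 of 10 at least 2-fold lower. Of all 21431 genes, 2236 were at least 2-fold higher and 9799 at least 2-fold lower with that scale. H2-Aa at -0.11 and H2-Ab1 at -0.07 depended on the scaling, with 0.04 and 0.08 for DESeq2 size factors, 0.01 and 0.05 without Gm26917, and -0.62 and -0.58 for total counts. H2-Eb1 and H2-DMb1 were at 0.34 and 0.10 with TMM but at -0.16 and -0.41 with total counts. For all genes, total counts lowered the median log2 ratio from -0.34 to -0.84, and higher genes made up 18.6% of those 2-fold apart against 33.4%.

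BLM Lamp1-enriched cells lay at least 2-fold below unsorted cells for 4 of 10 genes, beside 19.1% of 22149 genes at least 2-fold lower and 12.6% at least 2-fold higher. These were H2-Eb1 at 2.33-fold, Cd74 at 2.18-fold, H2-DMa at 2.1-fold and H2-Oa at 3.16-fold. Ciita was 1.16-fold higher instead (log2 ratio 0.22, 0.15 to 0.28). Cd74 and H2-DMa were accordingly higher in BLM unsorted cells than in either sorted fraction under all 4 scalings, and H2-Aa and H2-Ab1 under TMM and total counts but not under the other 2. Such a position was common, with 26.4% of 22801 genes above both fractions after BLM and 25.7% of 23233 genes in sham-treated mice, where 0 of 10 class II genes did so.

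Setting BLM against sham gave a direction that depended on the fraction. In unsorted cells 6 of 10 class II genes were at least 2-fold higher after BLM, beside 13.9% of 22772 genes at least 2-fold higher and 16% at least 2-fold lower. Cd74 was 4.21-fold higher (log2 ratio 2.07, 2.05 to 2.09), H2-DMa 3.46-fold (1.79, 1.70 to 1.89), H2-Eb1 3.12-fold (1.64, 1.60 to 1.68) and H2-DMb1 3.11-fold (1.64, 1.55 to 1.73). H2-Ab1 was 2.76-fold and H2-Aa 2.13-fold higher, and Ciita was just short of the threshold at 1.97-fold. H2-Ob and H2-DMb2 were lower, at log2 ratios of -0.40 (-0.52 to -0.29) and -0.34 (-0.47 to -0.21). H2-Oa showed no difference that 205 and 168 reads could resolve (0.01, -0.29 to 0.31), and its ratio was -0.25 with total counts. The median over the 10 genes was 1.28, against -0.07 over all genes. Total counts moved the all-gene median by -0.26 and left H2-Aa at 0.83, with higher genes at 32.4% of those 2-fold apart against 46.6%.

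In Lamp1-depleted cells most class II genes were lower after BLM. The difference was at least 2-fold for 4 of 10, H2-Aa, Cd74, H2-DMa and H2-DMb2, beside 22.3% of 20852 genes at least 2-fold lower and 13.7% at least 2-fold higher. The call for H2-DMa, at -1.03, did not hold with DESeq2 size factors (-0.88), without Gm26917 (-0.98) or with thinned counts (-0.96). H2-Aa was 3.26-fold lower (log2 ratio -1.70, -1.73 to -1.68), H2-DMb2 2.52-fold (-1.33, -1.39 to -1.28) and Cd74 2.48-fold (-1.31, -1.33 to -1.29). H2-DMb1 ran the other way, 1.8-fold higher (0.84, 0.76 to 0.93). Ciita was at 0.14 (0.09 to 0.19) with TMM and at -0.58 with total counts, so that its direction is not settled. This comparison rests on the library with 38.4% of its reads on Gm26917. With total counts as the scale, the all-gene median moved by -0.72 and 8 of 10 members were at least 2-fold lower. Of all 20852 genes, 9770 were then at least 2-fold lower, against 4649 with TMM. Higher genes made up 12.7% of those 2-fold apart against 38.1%.

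Neutrophil markers ran the opposite way in Lamp1-depleted cells, at least 2-fold higher after BLM for 7 of 7 with enough reads (median log2 ratio 2.67), beside 13.7% of all genes. Summed over 8 genes, with Csf3r the most abundant in every library, they were at 75.7, 51 and 31.9 CPM in the sham libraries and at 131, 355 and 62.7 after BLM. Camp was at 0 reads in sham Lamp1-depleted cells and at 1 in BLM unsorted and Lamp1-depleted cells, and Ngp at 2 in sham Lamp1-enriched cells. The part of neutrophils in the lower class II levels of BLM Lamp1-depleted cells was not tested.

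Within Lamp1-enriched cells, Ciita at 2.26-fold (log2 ratio 1.17, 1.10 to 1.25) and Cd74 at 2.16-fold (1.11, 1.08 to 1.13) were higher after BLM and H2-Oa was 2.65-fold lower (-1.40, -1.83 to -1.01). These were the 2 higher and the 1 lower of 10 genes past 2-fold, beside 10.2% of 21671 genes at least 2-fold higher and 7.81% at least 2-fold lower. H2-DMb1 at 0.89, H2-Eb1 at 0.84, H2-Ab1 at 0.71, H2-DMa at 0.61 and H2-Aa at 0.41 lay above 0. H2-Ob at -0.69 and H2-DMb2 at -0.60 lay below it, and the median over the 10 was 0.66 against -0.00 over all genes.

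**Figure D2:**
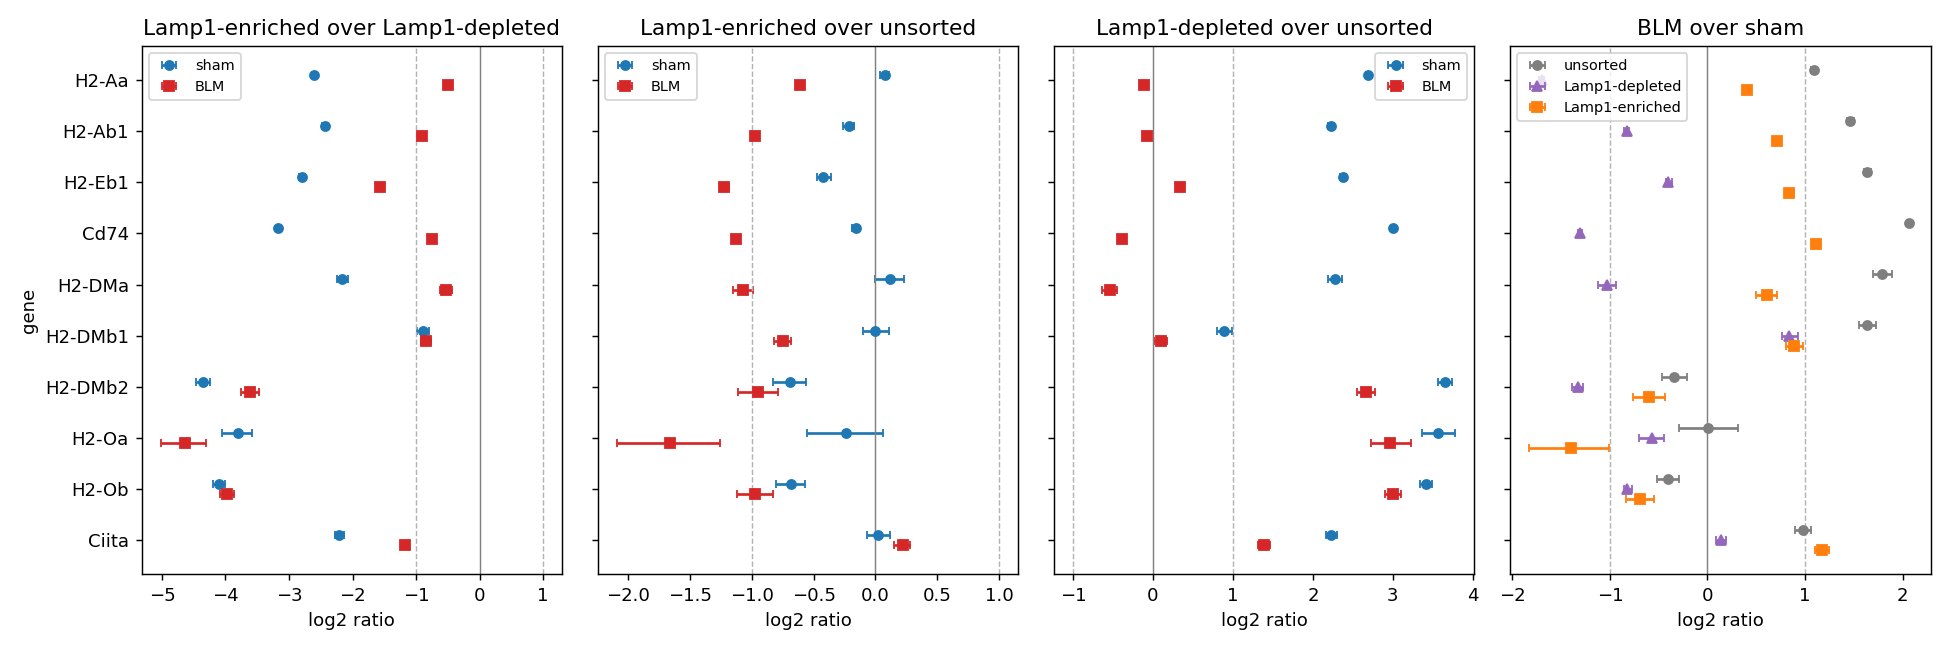
Log2 ratios of TMM-scaled CPM for the 10 genes in 4 kinds of comparison (points, with 95% Clopper-Pearson counting intervals as bars; dashed lines mark 2-fold, the solid line no difference). In the panel of Lamp1-depleted over unsorted cells, H2-Aa, H2-Ab1, H2-Eb1, Cd74 and H2-DMa were at 2.23 or more in sham-treated mice and between -0.54 and 0.34 after BLM, whereas H2-DMb2, H2-Oa and H2-Ob stayed at 2.66 or more in both.

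Ratios between members within a library do not depend on how libraries are scaled, and they show how the composition of the pathway differed. Reads of the inhibitor chains H2-Oa and H2-Ob relative to those of H2-DMa, H2-DMb1 and H2-DMb2 were at 0.821 (95% interval 0.805 to 0.837) in sham Lamp1-depleted and 0.825 (0.795 to 0.857) in BLM Lamp1-depleted cells. They were at 0.471 in sham unsorted and 0.337 in sham Lamp1-enriched cells, but at 0.149 (0.14 to 0.159) and 0.134 (0.124 to 0.144) in the matching BLM cells. So this pooled ratio of inhibitor to editor reads was the same in both Lamp1-depleted libraries within counting error and was lower after BLM in the other cells. Ratios of single chains did differ, with 6.33 reads of H2-Ob for each H2-DMb1 read in sham Lamp1-depleted and 2 in BLM Lamp1-depleted cells.

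Which beta chain of H2-DM prevailed depended on the library. H2-DMb2 had 5.72 reads (5.48 to 5.96) for each H2-DMb1 read in sham Lamp1-depleted cells and 1.26 (1.19 to 1.34) in BLM Lamp1-depleted cells. The ratio was 0.843 in sham unsorted, 0.52 in sham Lamp1-enriched, 0.213 in BLM unsorted and 0.185 in BLM Lamp1-enriched cells, a 30.9-fold span over the 6 libraries between genes whose promoter stretches, printed above, share both sets of capitals. The sum of all 3 H2-DM genes relative to the classical chains varied far less, from 0.12 in BLM Lamp1-enriched to 0.175 in BLM Lamp1-depleted cells.

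Cd74 relative to H2-Aa, H2-Ab1 and H2-Eb1 together was at 0.68, 0.964 and 0.65 in the sham libraries and at 1.13, 0.854 and 0.942 after BLM. BLM unsorted cells thus carried the most invariant chain reads per classical chain read, at 1.13 (1.12 to 1.15). Ciita relative to the same chains was at 0.0613, 0.0509 and 0.0667 in the sham libraries. After BLM it was at 0.0479 (0.0462 to 0.0497) in unsorted, 0.123 (0.119 to 0.127) in Lamp1-depleted and 0.101 (0.0983 to 0.104) in Lamp1-enriched cells. Both sorted BLM fractions therefore had more transactivator reads for the chain reads present than any other library, while unsorted BLM cells had the fewest. Between the classical chains, H2-Aa had 2.16 reads for each H2-Ab1 read in sham Lamp1-depleted cells and 1.18 in BLM Lamp1-depleted cells, and H2-Eb1 had 0.702 and 0.948.

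**Figure D3:**
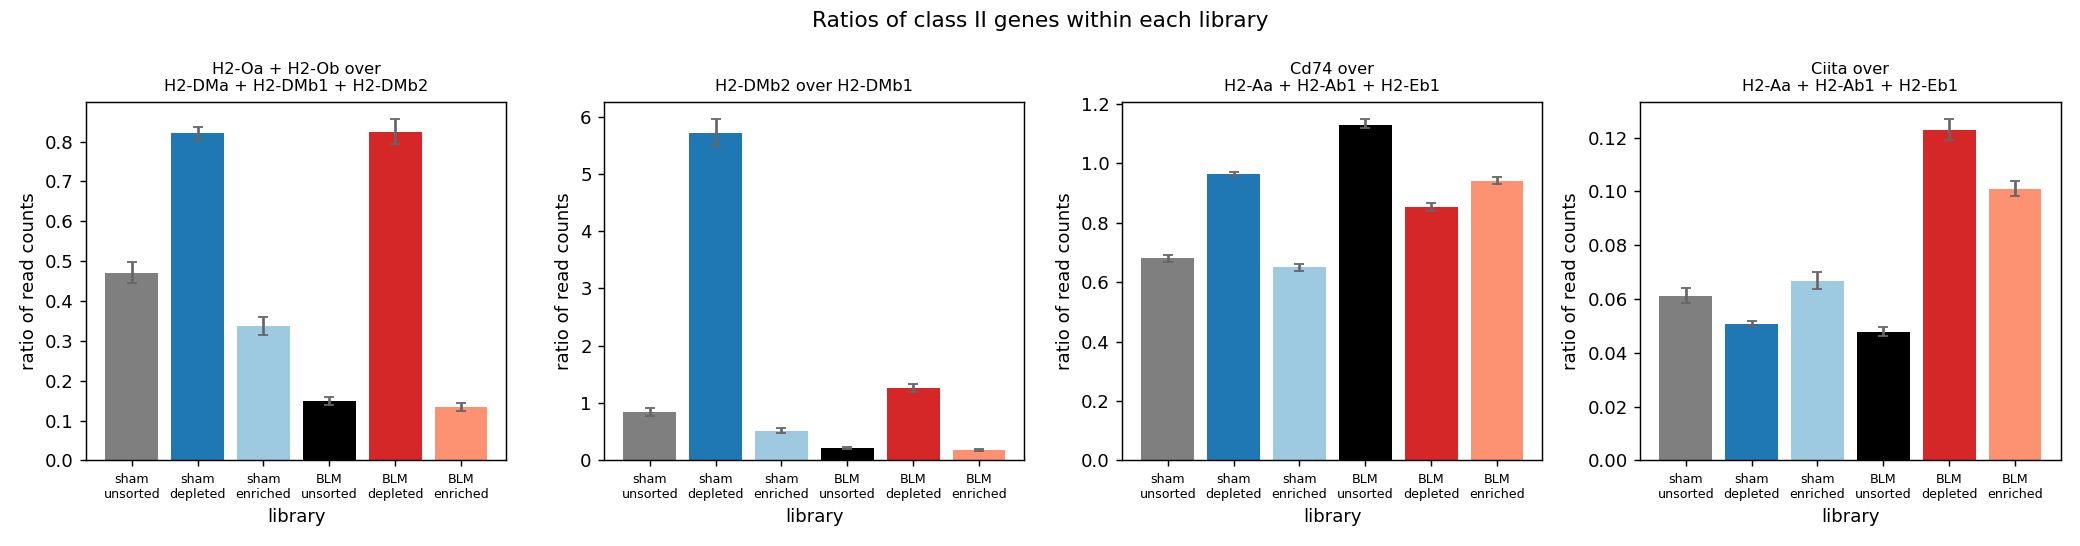
Ratios of read counts between class II genes within each of the 6 libraries (bars from 0, error bars the 95% Clopper-Pearson interval turned into a ratio). H2-Oa and H2-Ob over H2-DM was 0.821 and 0.825 in the Lamp1-depleted libraries and at most 0.149 in BLM unsorted and Lamp1-enriched cells, and H2-DMb2 over H2-DMb1 reached 5.72 in sham Lamp1-depleted cells.

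Markers of B cells and T cells shared the pattern of H2-Oa, H2-Ob and H2-DMb2. All 9 B cell markers (Ms4a1, Cd79a, Cd79b, Pax5, Fcer2a, Blk, Bank1, Cr2 and Fcmr) were at least 2-fold lower in Lamp1-enriched than in Lamp1-depleted cells of both treatments, beside 25.2% of all genes in sham and 22.6% in BLM cells. The B cell markers had median log2 ratios of -4.19 in sham and -4.12 in BLM cells. Summed over the list they were at 368, 4352 and 243 CPM in the sham libraries and at 234, 1888 and 102 after BLM. Bank1 was the most abundant of them in every library, and none was at 3 reads or fewer. Centred on its own mean, the log2 profile of H2-Oa, H2-Ob and H2-DMb2, grouped after their values were seen, differed from the median profile of the B cell markers by a root mean square of 0.22 over the 6 libraries. It differed from that of 10 T cell markers by 0.14, and from that of NK cell markers by 0.50, so that B and T cell markers were both near it. Other lymphoid lists were farther from it, type 2 innate lymphoid cells at 1.67 and plasma cells at 1.91. The T cell markers were at 49.5, 664 and 33.2 CPM in sum in the sham libraries and at 55.4, 477 and 19.7 in the BLM libraries, with Cd28 or Lck the most abundant and none at 3 reads or fewer. The part of lymphocyte numbers in the class II differences was not tested.

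The 4 most abundant class II genes did not follow the B and T cell lists. H2-Aa, H2-Ab1, H2-Eb1 and Cd74 lay at 0.56 from their own mean log2 level in BLM unsorted and -0.42 in BLM Lamp1-enriched cells, where the B cell markers lay at -1.16 and -2.24 from theirs. Markers of interstitial macrophages, the C1q genes, Mrc1 and others, were at least 2-fold higher in BLM than in sham unsorted cells for 9 of 9, beside 13.9% of all genes, with a median log2 ratio of 3.24. Their sum was at 123, 120 and 48 CPM in the sham libraries and at 1083, 153 and 157 after BLM. Mrc1 led the list in 4 libraries, Cx3cr1 in sham and Apoe in BLM Lamp1-depleted cells, and Folr2 had 1 read in each Lamp1-depleted library. Alveolar macrophage markers were at 622, 177 and 288 CPM in sum in the sham libraries and at 2791, 250 and 406 after BLM. In BLM against sham unsorted cells 6 of 9 were at least 2-fold higher, beside 13.9% of all genes. Fabp1 and Krt79, 2 of 9, were at least 2-fold lower, beside 16% of all genes. Chil3 led that list except in sham Lamp1-enriched cells, where Car4 did, and Fabp1 was at 0 reads in both sorted BLM fractions. Car4 is on the list of endothelial markers too. Although the sum was higher in sham Lamp1-enriched than Lamp1-depleted cells, 3 of 9 genes were at least 2-fold lower and 2 higher (median log2 ratio -0.04). Over all genes these shares were 25.2% and 27.5%. Of 7 markers of type 2 conventional dendritic cells, 5 were at least 2-fold higher in BLM than in sham unsorted cells, beside 13.9% of all genes. The same held for 5 of 7 markers of type 1 conventional and 3 of 6 of mature migratory dendritic cells. The sum of the type 2 list alone was at 298, 188 and 215 in the sham libraries and at 1589, 311 and 342 after BLM. It was led by Sirpa, Itgax or Zbtb46, with none at 3 reads or fewer. Most genes of the type 2 list did not follow its sum between the sorted fractions. In sham Lamp1-enriched against Lamp1-depleted cells 4 of 7 were at least 2-fold lower and 1 higher (median log2 ratio -1.63). Over all genes these shares were 25.2% and 27.5%. In BLM cells 3 of 7 were lower and 1 higher (-0.40), beside 22.6% and 34.4%. The part of macrophages and dendritic cells in the class II levels was not tested.

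By the median over each list, the profiles nearest to these 4 genes were those of monocytes (root mean square difference 0.63), plasmacytoid dendritic cells (0.71) and type 1 conventional dendritic cells (0.78), but the genes within these lists were divided. Such a difference grows with the amplitude of a list as well as with its shape, and the nearly flat list of type 2 innate lymphoid cells was at 0.98. In sham Lamp1-enriched against Lamp1-depleted cells, 5 of 8 monocyte markers were at least 2-fold lower, beside 25.2% of all genes. Ace and Chil1, 2 of 8, were at least 2-fold higher, beside 27.5% of all genes. The monocyte sum, led by Ace in every library, was at 1439, 772 and 2643 CPM in the sham libraries and at 1322, 520 and 3565 after BLM. This sum follows Ace more than the rest of the list. Of the full list, Ace included, 6 of 8 were lower in Lamp1-enriched cells in edgeR's quasi-likelihood test (Benjamini-Hochberg adjusted p under 0.05), beside 19.2% of all genes. Ace and Chil1, 2 of 8, were higher in that test, beside 21.5% of all genes. Of 7 markers of type 1 conventional dendritic cells, 4 were at least 2-fold lower and 2 at least 2-fold higher in sham Lamp1-enriched against Lamp1-depleted cells, beside 25.2% and 27.5% of all genes. Their sum was at 337, 593 and 300 in the sham libraries and at 562, 728 and 306 after BLM, led by Wdfy4 or, in Lamp1-enriched cells, Cadm1, with none at 3 reads or fewer. Most genes of this list did not follow its sum after BLM. In BLM Lamp1-depleted against unsorted cells 5 of 7 were at least 2-fold lower and 2 at least 2-fold higher (median log2 ratio -1.96). Over all genes these shares were 33.6% and 16.9%. Of 6 plasmacytoid dendritic cell markers, 3 were at least 2-fold lower and 2 at least 2-fold higher in sham Lamp1-enriched against Lamp1-depleted cells, beside 25.2% and 27.5% of all genes. The plasmacytoid markers summed to 50.9, 58.8 and 48.9 in the sham libraries and to 93.1, 59.8 and 44.4 after BLM. The mature migratory list, led by Ccr7 or Fscn1 and with none at 3 reads or fewer, summed to 62.1, 520 and 57.9 in the sham libraries and to 160, 201 and 86.1 after BLM. Most of its genes did not follow this sum. In sham Lamp1-depleted against unsorted cells 1 of 6 was at least 2-fold higher and 3 at least 2-fold lower (median log2 ratio -1.15). Over all genes these shares were 18.3% and 30.4%. Bst2 or Runx2 led the plasmacytoid list, and Klk1 was at 0 reads in sham unsorted, 1 in BLM unsorted and 2 in BLM Lamp1-enriched cells, and Cox6a2 at 3 in both Lamp1-depleted libraries. The part of these cell types was not tested.

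**Figure D4:**
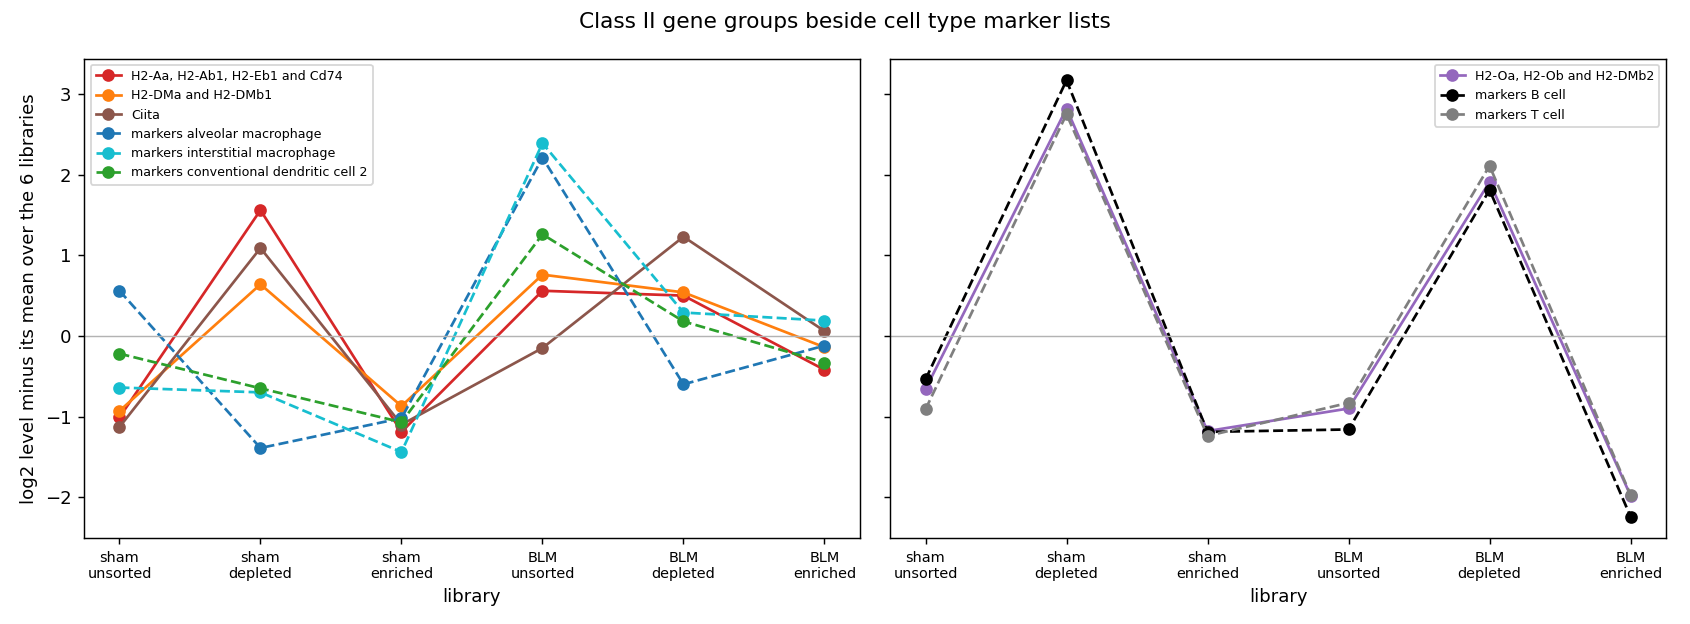
Log2 level of class II gene groups (solid lines, mean over the genes) and of cell type marker lists (dashed lines, median over the genes) in the 6 libraries, each minus its own mean. H2-Oa, H2-Ob and H2-DMb2 lay within a root mean square of 0.22 of the B cell and T cell lists, and H2-Aa, H2-Ab1, H2-Eb1 and Cd74 stood 0.56 above their mean in BLM unsorted cells.

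Reads of class II genes were also set against marker reads within each library, ratios chosen after their values were seen. H2-Oa and H2-Ob together had 0.102, 0.0932 and 0.1 reads for each read of the 9 B cell markers in the sham libraries. The ratio was 0.126, 0.125 and 0.139 after BLM, a span of 1.49-fold while the level of H2-Ob alone spanned 27.7-fold. For H2-DMb2 the same ratio ran from 0.065 to 0.102. H2-DMb1, its close copy, ran from 0.0129 in sham Lamp1-depleted to 0.55 in BLM Lamp1-enriched cells, a span of 42.6-fold. No such ratio was taken to the T cell markers. Their profile lay nearer to H2-Oa, H2-Ob and H2-DMb2 (0.14) than that of the B cell markers (0.22). A steady ratio is therefore not shown to be particular to B cells. H2-Aa, H2-Ab1, H2-Eb1 and Cd74 in sum had 1.62 reads per B cell marker read in sham Lamp1-depleted and 1.61 in BLM Lamp1-depleted cells, against 14.6 in BLM unsorted and 16.8 in BLM Lamp1-enriched cells. Relative to Ptprc, the same sum was at 2.31, 2.72 and 4.84 in the sham libraries and at 3.95, 2.39 and 9.92 after BLM. Lamp1-enriched cells of both treatments, which had the least class II and the least Ptprc RNA of their treatment, therefore had the most class II reads for each Ptprc read.

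**Figure D5:**
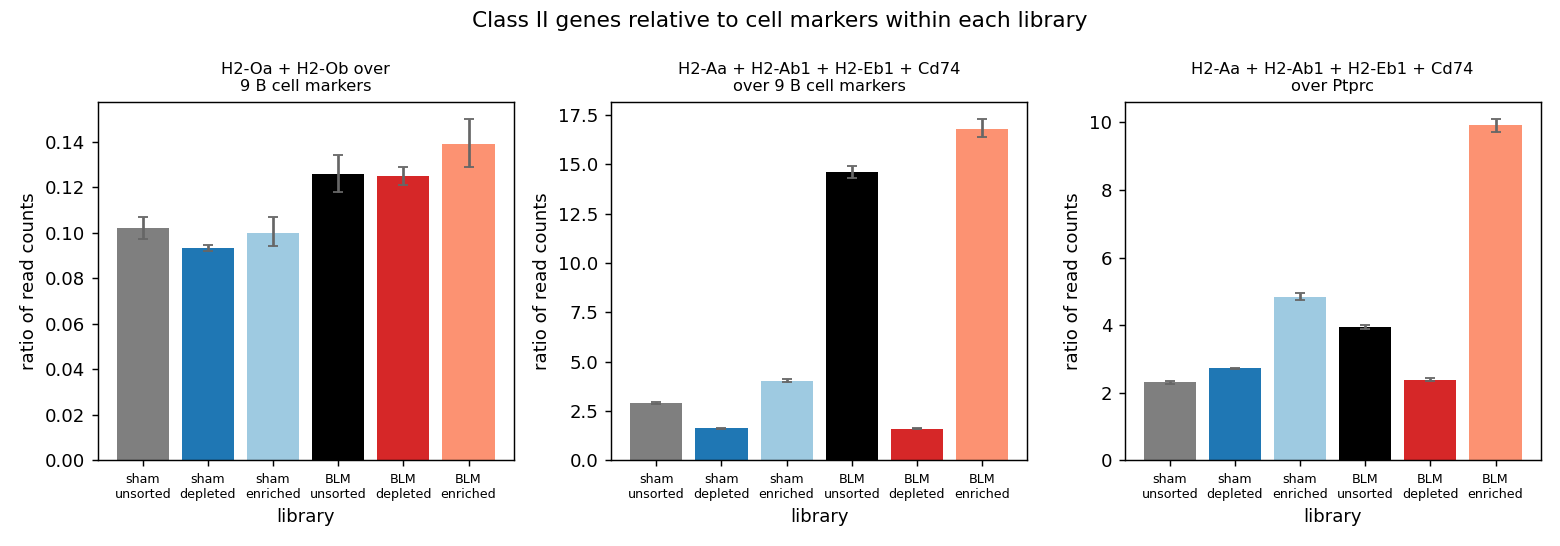
Ratios of class II read counts to the reads of 9 B cell markers or of Ptprc within each of the 6 libraries (bars from 0, error bars the 95% Clopper-Pearson interval turned into a ratio). H2-Oa and H2-Ob over B cell markers stayed between 0.0932 and 0.139, while the sum of H2-Aa, H2-Ab1, H2-Eb1 and Cd74 over B cell markers ran from 1.61 to 16.8 and over Ptprc from 2.31 to 9.92. Ratios to T cell markers were not taken.

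Alveolar type 2 cells express class II genes as well, and their markers took another course. Summed over 8 genes, led by Sftpc in sham unsorted and both Lamp1-enriched libraries, Napsa in sham Lamp1-depleted cells and Abca3 in the other BLM cells, these markers were at 1474, 429 and 1081 CPM in the sham libraries and at 404, 214 and 352 after BLM, with none at 3 reads or fewer. They were at least 2-fold higher in Lamp1-enriched than in Lamp1-depleted cells for 6 of 8 in each treatment, opposite to the class II genes, beside 27.5% of all genes in sham and 34.4% in BLM cells. The 1 of 8 at least 2-fold lower was Napsa (log2 ratios -2.69 in sham and -2.06 in BLM cells), beside 25.2% and 22.6% of all genes. In unsorted cells 5 of 8 were at least 2-fold lower in BLM-treated than in sham-treated mice, beside 16% of all genes. Their part in the class II reads of Lamp1-enriched cells was not tested.

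Markers of endothelial cells and platelets differed between the sorted fractions in the direction opposite to class II genes. All 10 endothelial markers were higher in Lamp1-enriched than in Lamp1-depleted cells in edgeR's quasi-likelihood test with Benjamini-Hochberg adjustment, beside 21.5% of all genes, at a median log2 difference of 3.32. The median of their log2 ratios was 3.08 for sham-treated and 3.54 for BLM-treated mice. Their sum was at 6139, 1390 and 10742 CPM in the sham libraries and at 4001, 1026 and 11222 after BLM, led by Cdh5, Pecam1 or Vwf, with none at 3 reads or fewer. All 6 platelet markers were higher too in that test, beside 21.5% of all genes, at a median log2 difference of 3.92. They were at 284, 37.1 and 929 CPM in sum in the sham libraries and at 49.2, 12 and 132 after BLM. Ppbp led this list except in BLM Lamp1-depleted cells, where Itga2b did and Treml1 was at 0 reads. The part of these cells in the class II differences was not tested.

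Genes linked to class II transcription were followed as a list of 12. In edgeR's quasi-likelihood test, 5 of 12 were lower in Lamp1-enriched than in Lamp1-depleted cells and 0 higher, beside 19.2% and 21.5% of all genes, with 5 at an unadjusted p under 0.05. These were Rfx5, the RFX subunit, with a log2 difference of -1.21 (adjusted p = 0.0018), and the lymphoid and myeloid factors Irf4 at -4.13 (2.8e-22), Irf8 at -3.09 (1.1e-15), Spi1 at -2.62 (5.6e-12) and Spib at -4.24 (4.4e-25), each lower in 2 of 2 treatments. The partners of Rfx5, Rfxap at 0.17 and Rfxank at -0.48, and Nfya at -0.16 and Creb1 at 0.30 did not pass. In BLM against sham unsorted cells, 2 of 12 were at least 2-fold higher, a share near the 13.9% of all genes, Spi1 at 4.62-fold and Irf8 at 2.62-fold, while Spib was at a log2 ratio of -0.47 (-0.63 to -0.31). Of the interferon gamma input, which induces Ciita in many cell types, 2 of 6, Ifng and Socs1, were lower in Lamp1-enriched cells in edgeR's test, beside 19.2% of all genes. Ifng had 247 reads in sham and 48 in BLM Lamp1-depleted cells and at most 25 in the other libraries. Irf1 was at a log2 ratio of -0.93 (-0.98 to -0.87) in BLM against sham unsorted cells.

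Endosomal proteases and a reductase prepare peptides and trim Cd74. All 8 (Ctss, Ctsl, Ctsb, Ctsd, Ctsh, Ctsz, Lgmn and Ifi30) were at least 2-fold higher in BLM than in sham unsorted cells, beside 13.9% of all genes, with a median log2 ratio of 2.94. The macrophage markers described above were higher in the same comparison, for 9 of 9 interstitial (median 3.24) and 6 of 9 alveolar genes, and their part in the protease levels was not tested. Ctss, the main protease that cuts Cd74 in professional presenting cells, was at 99.7, 305 and 43.8 CPM in the sham libraries and at 2359, 271 and 285 after BLM. It was thus 23.7-fold higher in BLM than in sham unsorted cells (log2 ratio 4.57, 4.52 to 4.61), beside 4.21-fold for Cd74. BLM Lamp1-enriched cells were at least 2-fold below BLM unsorted cells for 8 of 8, beside 19.1% of all genes, and BLM Lamp1-depleted cells for 7 of 8, beside 33.6%. In edgeR's test across the fractions 4 of 8 were lower in Lamp1-enriched cells, beside 19.2% of all genes, and 1 of 8 higher, beside 21.5%, Ctsl, at a log2 difference of 1.65 (adjusted p = 1.7e-05, higher in 2 of 2 treatments). The treatments differed for this list. Its median log2 ratio was -0.71 in sham cells, with 6 of 8 below 0. In BLM cells it was 0.23, with 5 of 8 above 0. Ctss, called lower, was at 285 CPM in BLM Lamp1-enriched against 271 in BLM Lamp1-depleted cells.

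Ligases that send class II molecules to degradation showed opposite fractions. March1, which is known from B cells and dendritic cells, was at 33.2, 264 and 20.5 CPM in the sham libraries and at 86.7, 84.6 and 17.6 in the BLM libraries, highest in sham Lamp1-depleted cells like Cd74. March8, the broadly expressed relative, was at 80.9, 12.7 and 117 in the sham libraries and at 65.9, 10.7 and 78.6 after BLM. In edgeR's test March1 was lower in Lamp1-enriched cells (log2 difference -3.07, adjusted p = 1.2e-14) and March8 higher (2.95, 2.2e-14), each in 2 of 2 treatments. Cd83, which protects surface class II from March1, was lower as well (-3.57, 2.0e-16).

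Of 6 costimulatory and inhibitory ligands seen by T cells beside class II, all 6 were lower in Lamp1-enriched cells in edgeR's test, beside 19.2% of all genes, among them Cd86 at a log2 difference of -2.85 (adjusted p = 5.0e-13) and Icosl at -3.30 (1.7e-17). In BLM against sham unsorted cells 4 of 6 were at least 2-fold higher, beside 13.9% of all genes, including Cd274 at 3.94-fold and Cd80 at 2.69-fold. Of 6 receptors and ligands of class II or Cd74, 3 were lower in Lamp1-enriched cells in the test, beside 19.2% of all genes, namely Cd4, Cxcr4 and Cxcr2. Cd44, at 4.07-fold, was the 1 of 6 at least 2-fold higher in BLM than in sham unsorted cells, a share near the 13.9% of all genes.

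The class I pathway, which presents peptides from the cytosol to CD8+ T cells, was set beside class II as a list of 11 genes. In edgeR's test 2 of 11 were lower in Lamp1-enriched cells, beside 19.2% of all genes, Nlrc5 at -1.79 (adjusted p = 8.2e-06) and Tap1 at -0.97 (0.018), and B2m was higher at 1.38 (0.015), 1 of 11 beside 21.5% of all genes, each in 2 of 2 treatments. Nlrc5, the class I counterpart of Ciita, was at 64, 117 and 49.3 CPM in the sham libraries and at 108, 321 and 72.1 after BLM. Both transactivators were thus highest in BLM Lamp1-depleted cells, although for Ciita the order against sham Lamp1-depleted cells turned with total counts.

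H2-Eb2, a further beta chain gene of the class II locus outside the 10 members, was at 9.62, 112 and 7.06 CPM in the sham libraries and at 10, 56.9 and 4.71 after BLM. It was lower in Lamp1-enriched cells in edgeR's test (log2 difference -3.88, adjusted p = 4.3e-22, lower in 2 of 2 treatments). Its pattern lay nearer to H2-Ob than to H2-Eb1, with Lamp1-depleted cells after BLM above unsorted cells 5.66-fold for H2-Eb2, 8.01-fold for H2-Ob and 1.27-fold for H2-Eb1.

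Among other genes with a mean of at least 5 CPM, the 10 whose centred log2 level over the 6 libraries was closest to the mean of H2-Aa, H2-Ab1, H2-Eb1 and Cd74 were Tes, Btg1, Fam69a, Dck, Malt1, Fam49b, Elf4, Sema4b, Tnfaip8 and Glipr1. Their root mean square differences ran from 0.19 for Tes to 0.31 for Glipr1. Among the members, H2-DMa was at 0.23 from that mean, Ciita at 0.50, H2-DMb1 at 0.69, and H2-DMb2, H2-Oa and H2-Ob at 1.16, 1.18 and 1.20.

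In the annotation (GRCm38), 8 of the 10 genes lie on chromosome 17 between positions 34092340 and 34316674, within the MHC. Ciita lies on chromosome 16 from 10480059 to 10528418, and Cd74 on chromosome 18. H2-DMb2 (34143307 to 34151555) and H2-DMb1 (34153072 to 34160230), which had unlike levels, are next to each other. Exons of H2-DMa overlap the antisense gene Brd2 over 360 bases, those of H2-Oa overlap BC051537 over 321 bases, and those of Ciita overlap Dexi over 329 bases. The labels do not say whether strand was used in counting, so reads from the shared bases cannot be assigned to either gene. These bases are 360 of 3448 exon bases of H2-DMa, 321 of 1407 of H2-Oa and 329 of 9535 of Ciita.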

How the data were processed

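Polyadenylated RNA of 6 lung libraries was sequenced as read pairs of 150 bases. The authors deposited counts made from aligned reads with featureCounts, 1 value a gene and not normalized. The submitters' processing notes name Trimmomatic 0.36, STAR 2.5.2b, featureCounts of Subread 1.5.2, DESeq2 and GRCm38. They state neither strand use nor the treatment of reads that map to several genes.

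Libraries were scaled with TMM factors of edgeR 4.0.16. Log2 ratios added 0.5 reads, in proportion to library size, and were taken where the higher library had 10 reads or more, and Clopper-Pearson intervals of the share of reads at 95%. Reads are not independent molecules, so these cover counting error only. The quasi-likelihood test (filterByExpr, Benjamini-Hochberg adjustment over all genes tested, threshold 0.05) had a biological coefficient of variation of 0.316 and infinite prior degrees of freedom. Within-library ratios carry the same kind of interval. Exon lengths came from GENCODE M21. Genes were named by membership of the lists, and the 10 most alike by root mean square difference. The floor was set at 3 reads. Alternatives were DESeq2 1.42.0 size factors and Wald test, total counts, scaling without Gm26917, other prior counts, filters and folds, and thinned counts.

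The members and lists were chosen with earlier results of these data known. The interval and the test were tested on simulated data. Siglecf, Areg, Ccl21a and H2-Ea were not found by name. From each of 3 lists 1 gene is not reported and was left out of every list value.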

Additional observations from a re-analysis of the deposited data

Results flagged for a closer look

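For 5 members the BLM over sham difference ran in opposite directions in unsorted and in Lamp1-depleted cells, higher after BLM in the former and lower in the latter, with both counting intervals clear of 0. The log2 ratio in Lamp1-depleted cells minus that in unsorted cells was -3.38 for Cd74, -2.82 for H2-DMa, -2.80 for H2-Aa, -2.29 for H2-Ab1 and -2.04 for H2-Eb1. With 1 library per condition the difference between the fractions was not tested. Over the same libraries Ptprc had log2 ratios of 0.91 in unsorted and -1.03 in Lamp1-depleted cells, and its part in the result was not tested.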

How the results depend on the processing

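Of the 77 planned recomputations of member counts, 67 stayed within 1.5 times the count given in the report. A threshold of 8-fold instead of 2-fold lowered the counts by its construction: in Lamp1-enriched against Lamp1-depleted cells to 4 in sham and 3 in BLM, in Lamp1-depleted against unsorted cells to 4 in sham and 1 in BLM, and to 0 in BLM Lamp1-enriched against unsorted cells and in BLM against sham for unsorted, Lamp1-depleted and Lamp1-enriched cells. The matching counts over all genes at 8-fold are not given. Total counts gave 8 members in place of 4 for BLM against sham in Lamp1-depleted cells, where 9770 genes in place of 4649 were at least 2-fold lower. They gave 3 members in place of 10 in edgeR's quasi-likelihood test, where 1564 genes in place of 3964 were called lower. The cause of these shifts was not tested. Adjusted p of H2-DMb1 in that test ranged from 0.012 to 0.57 over 5 alternatives, with 3 calls, and that of Cd74 from 4.5e-04 to 0.28, with 3 calls, while H2-DMb2, H2-Oa and H2-Ob were called in 5 of 5. Total counts shifted the median log2 ratio of all genes by 0.55 in BLM Lamp1-enriched over Lamp1-depleted cells and in sham Lamp1-enriched cells by -0.17 relative to Lamp1-depleted and -0.22 relative to unsorted cells, and DESeq2 size factors by at most 0.15 in any comparison. No member past 2-fold changed sign under any alternative. The ratio of the highest to the lowest member per length in sham Lamp1-depleted cells was 107 over all exons and 80.4 over exons of CCDS transcripts, an alternative chosen after seeing the data. Depth limited H2-Oa, with 73 to 205 reads in 4 libraries. No pairing of libraries beyond treatment was possible because the labels give no replicate numbers and each condition has 1 library. The only block in the test was therefore treatment, and without either treatment 1 library per fraction would be left.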
